A study of Mus musculus with 8 samples.

Results

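Chemokine ligands, the small secreted or membrane-anchored proteins that guide leukocytes, were followed in sorted mast cells (MC) from tumors and from the peritoneal cavity of mice given DC101 or placebo. They were chosen by name, from 34 ligand genes of the CC, CXC, C and CX3C classes, by a rule that uses no measured value, although the set was drawn up with earlier results of these data known. Of these, 33 had a transcript cluster annotated with that gene symbol alone, and each of the 33 had exactly 1, out of 24111 clusters on the array (21508 with a single symbol). Cxcl14 was not analysed here. Of the 33, 30 had a mean over the 8 arrays above that of the median cluster (3.48 on the log2 scale), and Ccl20, Ccl28 and Cxcl15 lay below it.

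C57BL/6J mice carried subcutaneous Panc02 tumors, grown from a mouse pancreatic cancer line, and were allocated at random to DC101 (40 mg/kg), an antibody against the VEGF receptor 2 of the mouse, or to placebo once a tumor volume of 100 mm3 was reached. The 4 groups were tumor MC after DC101, tumor MC after placebo, peritoneal MC after DC101 and peritoneal MC after placebo, with 2 arrays each, so that the peritoneal cells of every group also came from tumor-bearing animals. MC were sorted with antibodies to CD45, CD11b, CD117 (the receptor KIT) and the IgE receptor FceRI and with DAPI, from tumor suspensions or from lavage fluid. The labels do not say whether the 2 arrays of a group stand for separate mice or pools, so the p-values measure the spread between these arrays only, which may be technical.

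MC sit near vessels and at body surfaces and, when activated, release stored granule contents and newly made cytokines and chemokines. Most chemokines bind G protein-coupled receptors on leukocytes: inflammatory ligands are induced by danger signals and recruit monocytes, neutrophils, eosinophils and T cells, while homeostatic ligands position cells in lymphoid organs and body cavities. Many ligand genes lie side by side in clusters that arose by gene duplication, so neighbours can encode proteins with similar or with quite different targets.

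The DNA just before the start of 10 ligand genes is shown because the values below turn on these genes, in 3 ways. Cxcl1, Cxcl2 and Cxcl3 lie beside Ppbp and Pf4 but differed from them in direction between tumor and peritoneum. Ccl8 lies beside Ccl12, and both had higher values after DC101 in the peritoneum, where Ccl8 passed the test and Ccl12 did not. Ccl8 and Xcl1 were the ligands whose DC101 values differed between the compartments. Cxcl9 and Cxcl10 are both known as interferon-inducible, and 1 of them fell in the peritoneum. The sequences are those of RefSeq for build GRCm38.p6, end at the base before the annotated start and read 5′ to 3′ on the strand of the gene. Of the 33 measured ligands, 23 had an entry in the promoter table. Capitals mark matches, on either strand, to 3 short patterns: GGNNNTTCC (NF-kappaB-like), GAAANNGAA (interferon response-like) and TGANTCA (AP-1-like). No matches of different patterns overlapped in the sequences shown.
Cxcl1 (chr5:90891125-90891244, plus strand): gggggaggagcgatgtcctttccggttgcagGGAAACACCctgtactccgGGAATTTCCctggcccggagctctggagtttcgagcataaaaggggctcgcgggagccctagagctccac
Cxcl2 (chr5:90903779-90903898, plus strand): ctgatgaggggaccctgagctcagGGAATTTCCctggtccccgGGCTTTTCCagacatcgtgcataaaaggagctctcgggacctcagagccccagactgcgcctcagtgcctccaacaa
Cxcl3 (chr5:90785981-90786100, plus strand): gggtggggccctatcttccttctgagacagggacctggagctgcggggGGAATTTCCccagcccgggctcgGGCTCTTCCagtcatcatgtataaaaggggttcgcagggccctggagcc
Ppbp (chr5:90768398-90768517, plus strand): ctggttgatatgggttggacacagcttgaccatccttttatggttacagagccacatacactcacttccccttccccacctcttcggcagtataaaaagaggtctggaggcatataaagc
Pf4 (chr5:90772315-90772434, plus strand): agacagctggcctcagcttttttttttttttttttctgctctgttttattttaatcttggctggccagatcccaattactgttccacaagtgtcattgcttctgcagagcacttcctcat
Ccl12 (chr11:82101725-82101844, plus strand): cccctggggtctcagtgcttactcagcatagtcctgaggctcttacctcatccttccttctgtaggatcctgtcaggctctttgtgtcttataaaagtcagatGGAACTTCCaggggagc
Ccl8 (chr11:82115065-82115184, plus strand): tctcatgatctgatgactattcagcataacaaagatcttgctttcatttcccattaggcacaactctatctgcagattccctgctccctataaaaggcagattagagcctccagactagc
Xcl1 (chr1:164935523-164935642, minus strand): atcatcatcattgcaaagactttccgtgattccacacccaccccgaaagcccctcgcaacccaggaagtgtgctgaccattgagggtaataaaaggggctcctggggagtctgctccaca
Cxcl9 (chr5:92328080-92328329, minus strand): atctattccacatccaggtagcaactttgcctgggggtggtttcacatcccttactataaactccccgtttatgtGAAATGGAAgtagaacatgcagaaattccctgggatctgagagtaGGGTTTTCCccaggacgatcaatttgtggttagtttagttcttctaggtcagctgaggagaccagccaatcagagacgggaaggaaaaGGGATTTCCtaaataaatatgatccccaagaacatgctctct
Cxcl10 (chr5:92348890-92349139, minus strand): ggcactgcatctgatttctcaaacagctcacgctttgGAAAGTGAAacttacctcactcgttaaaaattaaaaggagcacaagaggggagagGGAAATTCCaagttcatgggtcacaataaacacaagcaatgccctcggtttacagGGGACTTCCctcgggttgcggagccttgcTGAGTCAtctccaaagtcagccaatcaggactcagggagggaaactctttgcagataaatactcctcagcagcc

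In the 120 bases shown, Cxcl1, Cxcl2 and Cxcl3 each held 2 NF-kappaB-like matches, and one of these was the same run of letters, GGAATTTCC, in all 3 genes, starting 70 bases before the start in Cxcl1, 96 in Cxcl2 and 72 in Cxcl3. Their neighbours Ppbp and Pf4 held none of the 3 patterns in the same window. Further out, within the 250 bases searched, Ppbp held an AP-1-like match that began 204 bases before the start. Ccl12 held 1 NF-kappaB-like match, 17 bases before the start, whereas Ccl8, the next gene along, held 0 matches, as did Xcl1. In the longer windows of 250 bases, Cxcl9 held 2 NF-kappaB-like matches and 1 interferon response-like match, and Cxcl10 held these and 1 AP-1-like match. Over the 250 bases before the start, an NF-kappaB-like match was found in 10 of the 23 ligands and in 15.7% of all 32851 promoters of the table, an interferon response-like match in 4 ligands and 7.13% of all promoters, and an AP-1-like match in 3 ligands and 6.75%. A match of letters is a description and not a binding site, and factor binding was not measured here.

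The arrays of a group correlated with each other at 0.974 to 0.986 over all clusters, and array medians lay between 3.34 and 3.46. Of 14 MC markers, 13 were measured, all above the median cluster in each group, with an average level of 8.64 to 9.62 over the 8 arrays. In limma none passed with DC101 in either compartment (at an unadjusted p under 0.05, 0 in tumor MC and 2 in peritoneal MC). Their log2 fold change with DC101 was above 0 for 7 of 13 in tumor MC (median 0.01). In peritoneal MC it was above 0 for 2 of 13 (median −0.24, lowest −1.53). Of the genes of the 4 sorted surface proteins, Kit and Fcer1a passed the test in none of the comparisons, while Ptprc (CD45) and Itgam (CD11b) were lower in tumor than in peritoneal MC, Ptprc by log2 fold changes of −1.72 within DC101 and −1.60 within placebo. Hdc, Gata2 and Hpgds were higher in tumor than in peritoneal MC after DC101. Markers of other cells were also present. Over the 12 measured macrophage markers the level was 5.97 to 6.37 in tumor MC, against 8.75 to 9.37 in peritoneal MC after DC101 and 7.47 to 7.61 in peritoneal MC after placebo. The 6 fibroblast markers averaged 7.65 to 8.0 in tumor MC and 3.32 to 3.92 in peritoneal MC. Values below are log2 values as deposited, which can be compared between arrays for 1 gene but not between genes. In sorted bulk RNA, fewer cells of a type and less RNA per cell cannot be told apart. No detection calls were used here. Where an array of the lower group read below the median of all clusters on that array, its value was raised to that median. The difference of the means is then given as at least so many fold, beside the adjusted p of the unchanged values. This bound allows for low values only and not for the spread between arrays, so confidence intervals can reach smaller differences. Changes were called at a Benjamini-Hochberg adjusted p under 0.05 in limma, over all 24111 clusters.

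**Figure D1:**
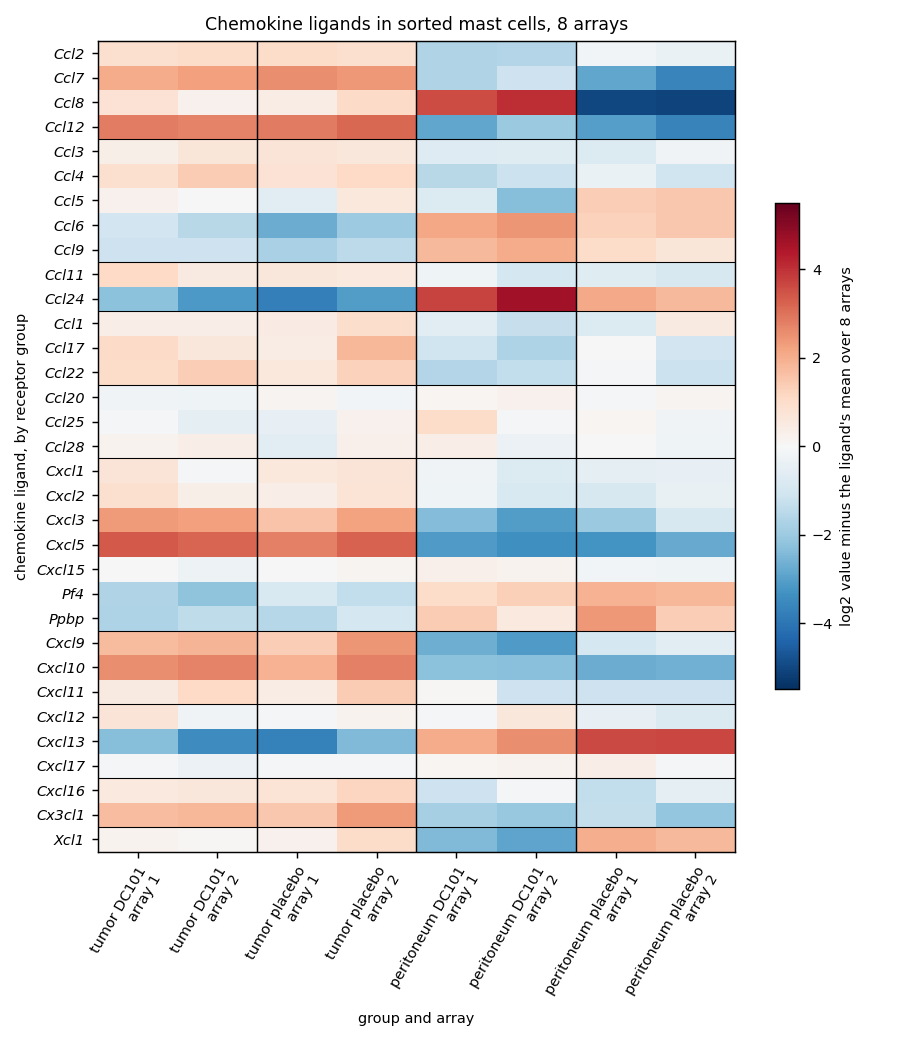
Each row is 1 of 33 chemokine ligands, grouped by receptor, and each column 1 of 8 arrays, with colour giving the log2 value minus the mean of that ligand over all arrays. The widest range was that of Ccl8, with 10.72 and 11.18 in peritoneal MC after DC101 and 2.11 and 2.04 in peritoneal MC after placebo, while Ccl20, Cxcl15, Cxcl17 and Ccl28 stayed nearly white.

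The effect of anti-VEGFR2 therapy on MC outside the tumor was examined in peritoneal MC. After DC101, 8 of the 33 ligands changed, 4 up (Ccl7, Ccl8, Ccl9 and Ccl24) and 4 down (Ccl2, Ccl5, Cxcl9 and Xcl1). This was 24.2% of the ligands, beside 4.58% of all clusters (2.48% up and 2.1% down). The median log2 fold change was 0.01 over the ligands and −0.02 over all clusters, so the ligands did not move one way as a group. Without array 2 of the DC101 group, and likewise without array 2 of the placebo group, 3 calls were left (Ccl2, Ccl8 and Xcl1), and with an ordinary linear model, which estimates the spread from each gene alone, 1 was left (Ccl8).

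The monocyte chemoattractant protein (MCP) genes, which lie on chromosome 11 with the eotaxin gene Ccl11 among them, changed in both directions. Ccl8 encodes a monocyte and T cell attractant whose best described receptor in the mouse is CCR8. Its value was 10.72 and 11.18 in peritoneal MC after DC101 and 2.11 and 2.04 after placebo. Both placebo arrays were below the median cluster and both DC101 arrays far above it, with no overlap. Ccl8 rose at least 181-fold (adjusted p = 5.63e-06). Ccl7, a CCR2 ligand that mobilizes monocytes, read 7.78 and 8.30 after DC101 and 6.58 and 5.81 after placebo. The groups did not overlap, and Ccl7 rose by 1.85 on the log2 scale (95% confidence interval 1.19 to 2.51, adjusted p = 0.011). Ccl2, the main CCR2 ligand and the classical monocyte attractant, went the other way, at 8.90 and 8.96 after DC101 and 10.38 and 10.17 after placebo. It fell 2.54-fold (log2 fold change −1.34, −1.78 to −0.91, adjusted p = 0.0077). Ccl12, a further CCR2 ligand of rodents, was low in all 4 peritoneal arrays (3.08 and 3.89 after DC101, 2.89 and 2.24 after placebo). Its values were higher in both DC101 arrays but did not pass the test (log2 fold change 0.92, unadjusted p = 0.0176, adjusted p = 0.15).

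The CCR1 ligands and the eotaxins also divided. Ccl9, a CCR1 ligand made by myeloid cells, read 10.57 and 10.85 in peritoneal MC after DC101 and 9.80 and 9.46 after placebo, without overlap. It rose by 1.08 (adjusted p = 0.03), and this call was lost under 10 of the alternatives tried. Its neighbour Ccl6, likewise a CCR1 ligand, read 10.72 and 11.02 after DC101 and 9.86 and 10.09 after placebo, a log2 fold change of 0.90 that did not pass (adjusted p = 0.124). Ccl24, an eotaxin that attracts eosinophils through CCR3, read 10.22 and 11.10 after DC101 and 8.59 and 8.27 after placebo. Every DC101 array was above every placebo array, and Ccl24 rose 4.69-fold (log2 fold change 2.23, 1.34 to 3.12, adjusted p = 0.0162). The other eotaxin, Ccl11, had 3.66 and 2.91 after DC101 and 3.22 and 2.99 after placebo, with overlapping groups.

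The ligands that fell beside Ccl2 were Xcl1 and Ccl5, known from T and NK cells, and Cxcl9, 1 of the 3 interferon-inducible CXCR3 ligands. Xcl1, the C chemokine through which T and NK cells attract cross-presenting dendritic cells, read 4.89 and 4.42 in peritoneal MC after DC101 and 9.34 and 9.14 after placebo. The groups were far apart, and Xcl1 fell 24-fold (log2 fold change −4.59, −5.23 to −3.94, adjusted p = 0.000247). Ccl5, a chemokine made by T cells and other leukocytes, read 8.33 and 6.75 after DC101 and 10.40 and 10.55 after placebo. The DC101 arrays were lower and further from each other than the placebo arrays, and Ccl5 fell (log2 fold change −2.94, −4.09 to −1.79, adjusted p = 0.015). Without array 2 of the DC101 group its log2 fold change was −2.15 and the call was lost, and without array 1 it was −3.73. Cxcl9, a CXCR3 ligand induced by interferon gamma, read 4.82 and 4.38 after DC101 and 6.56 and 6.87 after placebo, and fell 4.33-fold (log2 fold change −2.11, −2.89 to −1.34, adjusted p = 0.0116). Cxcl10, which binds the same receptor and whose sequence above also holds NF-kappaB-like and interferon response-like matches, read 3.51 and 3.48 after DC101 and 3.06 and 3.13 after placebo. Its values were slightly higher after DC101, and the difference of 0.40 did not pass (adjusted p = 0.498). Cxcl11, the other CXCR3 ligand, had overlapping groups and did not pass either (log2 fold change 0.61, adjusted p = 0.525).

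**Figure D2:**
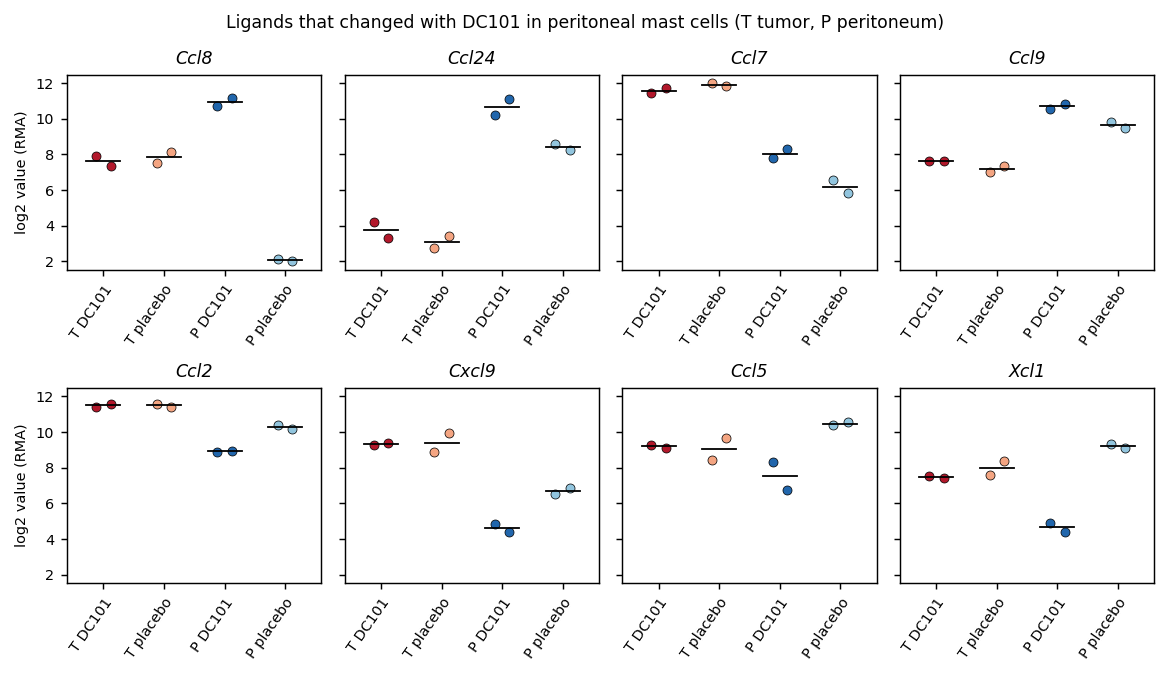
Each panel shows 1 ligand that changed with DC101 in peritoneal MC, ordered by log2 fold change, with points for the 2 arrays of each group on the deposited log2 scale and a bar at their mean. In peritoneal MC the DC101 and placebo points are apart in all 8 panels, whereas in tumor MC they lie within 1 log2 unit of each other in their means.

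The other 25 ligands did not pass in peritoneal MC. Cxcl13, the B cell attractant of body cavities, read 9.69 and 10.20 after DC101 and 11.29 and 11.33 after placebo, which was lower in both DC101 arrays (log2 fold change −1.36, unadjusted p = 0.0157, adjusted p = 0.142). Cxcl3, a neutrophil attractant, read 2.80 and 2.15 after DC101 and 3.16 and 4.34 after placebo, with a spread between the placebo arrays nearly as large as the log2 fold change of −1.27 (adjusted p = 0.116). The platelet chemokines had lower means after DC101, with 9.32 and 9.64 after DC101 and 10.26 and 10.14 after placebo for Pf4, and 6.14 and 5.28 and 7.11 and 6.11 for Ppbp (adjusted p = 0.177 and 0.257). In total 16 of the 33 ligands (48.5%) had an unadjusted p under 0.05, beside 18.9% of all clusters. In 19 ligands (57.6%) the DC101 arrays did not overlap the placebo arrays, beside 46% of all clusters.

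Markers of other cells differed between the same arrays. Of the 12 measured macrophage markers, 5 rose and 1 fell with DC101 in peritoneal MC. Lyve1 and Folr2, known from resident macrophages, rose by 4.71 and 4.38 on the log2 scale. The marker that fell was Fcgr1 (at least 5.54-fold). Timd4 had lower values after DC101 without a call, at 8.16 and 8.53 against 8.83 and 8.90 after placebo. Of 12 T and NK cell markers, 9 fell, and their average was 3.93 to 4.48 after DC101 and 6.23 to 6.27 after placebo. Those that fell included the NK receptor gene Ncr1 (at least 3.18-fold) and Il2rb (at least 5.41-fold). Cd3e read 3.56 and 3.09 after DC101 and 5.24 and 6.04 after placebo. Gzma fell too, with 5.65 and 3.01 after DC101, far from each other, and 7.70 and 7.98 after placebo. Of 5 measured B cell markers, Cd22 and Fcrla fell (average 7.55 to 7.99 after DC101, 8.84 to 8.94 after placebo). Of 6 eosinophil markers, Ccr3, Siglecf and Prg2 rose, Prg2 with a mean below the median cluster in both groups (average 6.02 to 6.24 after DC101, 4.78 to 4.81 after placebo), while Epx, the eosinophil peroxidase that defines these cells, stayed between 2.08 and 2.59 in all 4 arrays. Of 15 measured immediate early and stress genes, 8 rose, among them Fos and Fosb by 2.08 and 2.23 (average 8.96 to 9.03 after DC101, 7.92 to 8.05 after placebo). Of 3 basophil markers Mcpt8 fell (7.0 to 7.37 after DC101, 8.18 to 8.24 after placebo), of 6 neutrophil markers Retnlg rose (7.09 to 7.57 after DC101, 6.40 to 6.46 after placebo), and of 5 mesothelial markers Msln and Upk1b fell (2.59 to 3.31 after DC101, 4.21 to 4.25 after placebo). The part of these lists in the ligand values was not tested.

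In tumor MC, which share their tissue with the vessels that DC101 targets, none of the 33 ligands passed the test, beside 0% of all clusters in limma. At an unadjusted p under 0.05 there were 2 ligands (6.06%), beside 5.04% of all clusters. Ccl6, the CCR1 ligand, read 7.56 and 7.10 after DC101 and 5.87 and 6.60 after placebo, so both DC101 arrays lay above both placebo arrays. The log2 fold change was 1.09 (0.44 to 1.74, unadjusted p = 0.00425, adjusted p = 0.839), and Ccl6 was the single ligand past a p under 0.05 with a log2 fold change of at least 1, the study's thresholds with the p taken here as unadjusted, which 0.68% of all clusters reached. Pf4 read 6.67 and 6.11 after DC101 and 7.47 and 6.99 after placebo, with a log2 fold change of −0.83 (unadjusted p = 0.0115, adjusted p = 0.888). Both DC101 arrays were below both placebo arrays. Of the monocyte attractants that changed in the peritoneum, Ccl2 read 11.44 and 11.58 after DC101 and 11.57 and 11.43 after placebo in tumor MC (log2 fold change 0.00, −0.43 to 0.44). Ccl8 read 7.90 and 7.36 after DC101 and 7.52 and 8.16 after placebo in tumor MC (log2 fold change −0.21, −0.87 to 0.44), with overlapping arrays. In 11 ligands (33.3%) the DC101 and placebo arrays did not overlap, beside 36.3% of all clusters. With 2 arrays a group, the 95% confidence intervals of the ligands reached at least 0.43 on the log2 scale to each side of the estimate, with a median of 0.69. These intervals are not adjusted for the number of clusters. Changes larger than these widths could be missed too, as those of Ccl6 and Pf4 did not pass.

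**Figure D3:**
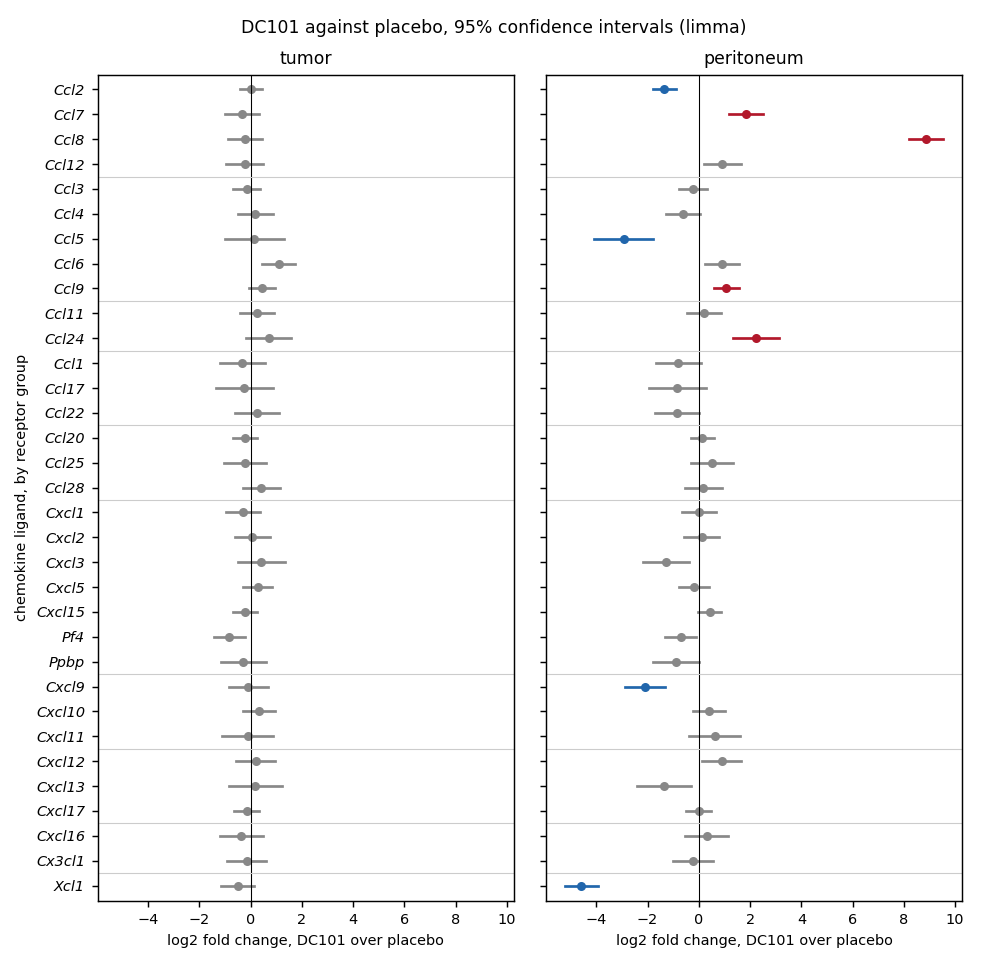
Points give the log2 fold change of DC101 over placebo for each of the 33 ligands, tumor MC on the left and peritoneal MC on the right, and lines the 95% confidence interval of limma; red marks a rise and blue a fall at adjusted p under 0.05, grey no call. The tumor panel holds no call, and the peritoneum panel holds 4 rises and 4 falls, of which Ccl8 lies farthest out, with a point that rests on placebo arrays below the median of all clusters.

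Whether the DC101 values differed between the compartments was tested directly, as the log2 fold change in tumor MC minus that in peritoneal MC. It passed for 2 of the 33 ligands (6.06%), beside 0.805% of all clusters. For Ccl8 the difference was −7.71 or further below 0 (adjusted p = 9.71e-05), from −0.21 in tumor MC and at least 7.50 in peritoneal MC. For Xcl1 it was 4.08 (3.17 to 4.99, adjusted p = 0.00662), from −0.50 in tumor MC, where the arrays read 7.53 and 7.41 after DC101 and 7.59 and 8.36 after placebo, and −4.59 in peritoneal MC. The differences of Ccl7 (−2.17, adjusted p = 0.0567), Ccl2 (1.35, 0.0631), Ccl5 (3.08, 0.0969), Cxcl9 (2.03, 0.102), Ccl24 (−1.53, 0.272) and Ccl9 (−0.63, 0.447) did not pass. For these 6 ligands a difference between the compartments was not shown, although each changed in the peritoneum. The count of ligands past this test was 6 with a prior spread that follows intensity, 4 without dim clusters and 0 with an ordinary linear model.

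The ligand repertoire of tumor MC was then set against that of peritoneal MC, within each treatment. The same 8 arrays enter these comparisons as those above, so they are not independent of them. After DC101, 25 of the 33 ligands differed (75.8%), beside 21.9% of all clusters, with 18 higher in tumor MC (12.4% of all clusters were) and 7 lower (9.54% of all clusters). After placebo, 25 differed as well, beside 19.6% of all clusters, again 18 higher (11.3% of all clusters) and 7 lower (8.29%). The 25 ligands were not all the same ones, since Ccl1 and Ccl5 passed after DC101 and not after placebo, and Cxcl1 and Cxcl11 passed after placebo and not after DC101, and none of these 4 passed the test of the difference. The median log2 fold change over the ligands was 1.22 after DC101 and 1.12 after placebo, beside −0.03 and −0.01 over all clusters. The arrays of tumor and peritoneal MC did not overlap for 31 ligands after DC101 and 28 after placebo, beside 58.6% and 56.9% of all clusters. Some fits with 1 array left out gave fewer ligands, and an ordinary linear model gave 17 after DC101 and 15 after placebo.

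Of the 4 MCP genes, 3 were higher in tumor MC within DC101 and all 4 within placebo. Ccl12 read 8.74 and 8.66 in tumor MC after DC101 and 8.76 and 9.10 after placebo, far above the 2.24 to 3.89 of the peritoneal arrays, and was at least 32.9-fold higher in tumor MC within DC101 and at least 44.7-fold higher within placebo (adjusted p = 8.15e-06 and 3.41e-06). Ccl7 read 11.46 and 11.70 in tumor MC after DC101 and 11.99 and 11.82 after placebo, with a log2 fold change over peritoneal MC of 3.54 within DC101 and 5.71 within placebo. For Ccl2 the differences were smaller, at 2.58 within DC101 and 1.23 within placebo. Ccl8 was 9.97-fold lower in tumor MC within DC101 (adjusted p = 5.81e-05) but at least 21.1-fold higher within placebo (adjusted p = 3.57e-06), so its order turned round with treatment. Xcl1 turned the opposite way, being higher in tumor MC within DC101 (log2 fold change 2.82, adjusted p = 0.000134) and lower within placebo (−1.27, adjusted p = 0.0129). Of the 12 T and NK cell markers, 5 were higher and 1 was lower in tumor MC within DC101, and 6 were lower within placebo (average 4.93 to 5.07 and 4.45 to 5.37 in tumor MC after DC101 and placebo, with the peritoneal values given above), and their part in the Xcl1 values was not tested.

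Of the 5 neutrophil attractants Cxcl1, Cxcl2, Cxcl3, Cxcl5 and Cxcl15, 3 were higher in tumor MC within DC101 and 4 within placebo, and Cxcl15 passed in neither. Cxcl5 read 9.16 and 8.96 in tumor MC after DC101 and 8.55 and 9.01 after placebo, against 2.67 and 2.41 and 2.47 and 2.99 in peritoneal MC after DC101 and placebo. This was at least 51.1-fold higher within DC101 and at least 40.3-fold higher within placebo (adjusted p = 1.52e-06 and 1.85e-06), the smallest adjusted p among the ligands in both comparisons. Cxcl3 read 7.56 and 7.45 in tumor MC after DC101 and 6.75 and 7.42 after placebo, at least 17.4-fold higher than in peritoneal MC within DC101 and at least 9.15-fold higher within placebo, where 1 of the peritoneal arrays was below its median. Within placebo the log2 fold change was 2.75 without peritoneal array 1 and 3.93 without peritoneal array 2. Cxcl2 and Cxcl1 differed less. Cxcl2 read 9.74 and 9.17 in tumor MC after DC101, 9.19 and 9.60 in tumor MC after placebo, 8.61 and 8.01 in peritoneal MC after DC101 and 7.97 and 8.43 in peritoneal MC after placebo (log2 fold change 1.15 within DC101 and 1.20 within placebo). Cxcl1 read 6.51 and 5.75 in tumor MC after DC101 and 6.35 and 6.49 after placebo, against 5.60 and 5.03 and 5.28 and 5.33 in peritoneal MC. It did not pass within DC101 (0.81, adjusted p = 0.0812) and was higher within placebo (1.12, adjusted p = 0.0255).

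The platelet chemokine genes Pf4 and Ppbp, which lie between Cxcl5 and Cxcl3, were lower in tumor MC. Pf4 read 6.67 and 6.11 in tumor MC after DC101 and 7.47 and 6.99 after placebo, against 9.32 and 9.64 and 10.26 and 10.14 in peritoneal MC, with log2 fold changes of −3.09 within DC101 and −2.97 within placebo. Ppbp read 3.03 and 3.33 in tumor MC after DC101 and 3.16 and 3.76 after placebo, lower than every peritoneal array, by at least 4.86-fold within DC101 and at least 8.05-fold within placebo. Of 4 measured platelet markers, Gp9 was lower in tumor MC in each comparison, by at least 1.58-fold within DC101 and at least 3.25-fold within placebo. The other 3 did not pass. The log2 fold change was above 0 for 2 of the 4 markers within DC101 and for 1 of 4 within placebo. The average of the 4 markers was 3.47 to 3.99 in tumor MC and 3.57 to 4.45 in peritoneal MC. The part of platelets in these values was not tested.

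The 3 interferon-inducible CXCR3 ligands were higher in tumor MC after placebo. Cxcl9 read 9.27 and 9.37 in tumor MC after DC101 and 8.86 and 9.95 after placebo, above all peritoneal arrays, with log2 fold changes of 4.72 within DC101 and 2.69 within placebo. Cxcl10 read 8.35 and 8.50 in tumor MC after DC101 and 7.68 and 8.54 after placebo, and was 30.5-fold higher within DC101, where the peritoneal arrays read just above their medians, and at least 25.4-fold higher within placebo (adjusted p = 5.13e-06 and 5.12e-06). Cxcl11, which RefSeq annotates as a transcribed pseudogene in this strain, read 4.80 and 5.42 in tumor MC after DC101 and 4.72 and 5.72 after placebo, against 4.39 and 3.17 and 3.16 and 3.17 in peritoneal MC. It did not pass within DC101 (1.33, adjusted p = 0.0622) and was higher within placebo (at least 3.42-fold, adjusted p = 0.0103). Both transmembrane ligands were higher in tumor MC. Cx3cl1, which tethers CX3CR1-bearing cells, read 6.61 and 6.76 in tumor MC after DC101 and 6.40 and 7.27 after placebo, against 3.11 and 2.85 and 3.61 and 2.81 in peritoneal MC (at least 9.9-fold within DC101 and at least 9.92-fold within placebo). Cxcl16, the ligand of CXCR6, read 7.77 and 7.86 in tumor MC after DC101 and 7.97 and 8.40 after placebo, against 6.09 and 7.10 and 5.88 and 6.70 in peritoneal MC, and was higher by 1.22 within DC101 and 1.90 within placebo (adjusted p = 0.0447 and 0.00649). The Cxcl16 call within DC101 was lost under 7 of the alternatives, and its log2 fold change was 0.71 without peritoneal array 1.

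The inflammatory chemokines Ccl3 and Ccl4, 2 CCR4 ligands and 1 eotaxin followed the same direction. Ccl3 read 9.57 and 9.91 in tumor MC after DC101 and 9.95 and 9.85 after placebo, against 8.55 and 8.59 and 8.52 and 9.07 in peritoneal MC, and was higher by 1.17 within DC101 and 1.10 within placebo. Ccl4 read 9.54 and 10.05 in tumor MC after DC101 and 9.46 and 9.77 after placebo, against 7.12 and 7.45 and 8.28 and 7.54 in peritoneal MC, and was higher by 2.51 within DC101 and 1.70 within placebo. For both ligands every tumor array was above every peritoneal array. Ccl17 read 7.62 and 7.19 in tumor MC after DC101 and 6.95 and 8.37 after placebo, against 5.48 and 4.85 and 6.54 and 5.49 in peritoneal MC. It was higher by 2.24 within DC101 and 1.65 within placebo (adjusted p = 0.00991 and 0.0447), and the call within placebo was lost under 10 of the alternatives, with a log2 fold change of 0.94 without tumor placebo array 2 and 2.35 without tumor placebo array 1. Ccl22, which shares CCR4 with Ccl17 and attracts type 2 and regulatory T cells, read 6.47 and 6.82 in tumor MC after DC101 and 6.06 and 6.74 after placebo, against 3.84 and 4.12 and 5.40 and 4.28 in peritoneal MC, and was higher by 2.66 within DC101 and 1.56 within placebo. Ccl11 was higher by at least 2.28-fold within DC101 and at least 2.01-fold within placebo, from low values of 4.40 to 4.98 in the tumor arrays and 2.91 to 3.66 in the peritoneal arrays. Ccl1, a CCR8 ligand, was higher within DC101 (3.96 and 3.97 in tumor MC against 2.97 and 2.35 in peritoneal MC, at least 1.5-fold, adjusted p = 0.0422, a call lost under 6 of the alternatives) and did not pass within placebo (0.82, adjusted p = 0.198). Ccl5 was higher in tumor MC within DC101 (1.67, adjusted p = 0.0451), and within placebo had lower values in tumor MC that did not pass (−1.42, adjusted p = 0.0881). The call within DC101 was lost under 9 of the alternatives, and the log2 fold change was 0.88 without peritoneal DC101 array 2 and 2.46 without peritoneal DC101 array 1.

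Ccl6, Ccl9, Ccl24 and Cxcl13 were lower in tumor MC under both treatments. Cxcl13 read 5.28 and 4.20 in tumor MC after DC101 and 3.90 and 5.22 after placebo, against the 9.69 to 11.33 of the peritoneal arrays. This was 36.9-fold lower in tumor MC within DC101 and 107-fold lower within placebo (adjusted p = 6.04e-05 and 1.5e-05), and within placebo the log2 fold change was −6.09 without tumor array 1 and −7.40 without tumor array 2. Ccl24 read 4.23 and 3.33 in tumor MC after DC101 and 2.73 and 3.42 after placebo, near the median cluster, and was at least 115-fold lower within DC101 and at least 31.5-fold lower within placebo. Of the 6 eosinophil markers, 4 were lower in tumor MC within DC101 and 3 within placebo (average 2.54 to 2.64 and 2.31 to 2.44 in tumor MC after DC101 and placebo, with the peritoneal values given above). Of the 12 macrophage markers, 11 were lower and 1 was higher in tumor MC within DC101, and 5 were lower within placebo. The part of either list in the Ccl24 values was not tested. Ccl9 read 7.64 and 7.63 in tumor MC after DC101 and 7.02 and 7.36 after placebo, and Ccl6 and Ccl9 were lower in tumor MC by log2 fold changes of −3.54 and −3.07 within DC101 and −3.73 and −2.44 within placebo. The 6 ligands that differed in no comparison were Ccl20, Ccl25, Ccl28, Cxcl12, Cxcl15 and Cxcl17. The values of these 6 genes lay between 1.68 (Cxcl15) and 4.94 (Cxcl12) over all arrays, and a low value cannot be told from background.

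**Figure D4:**
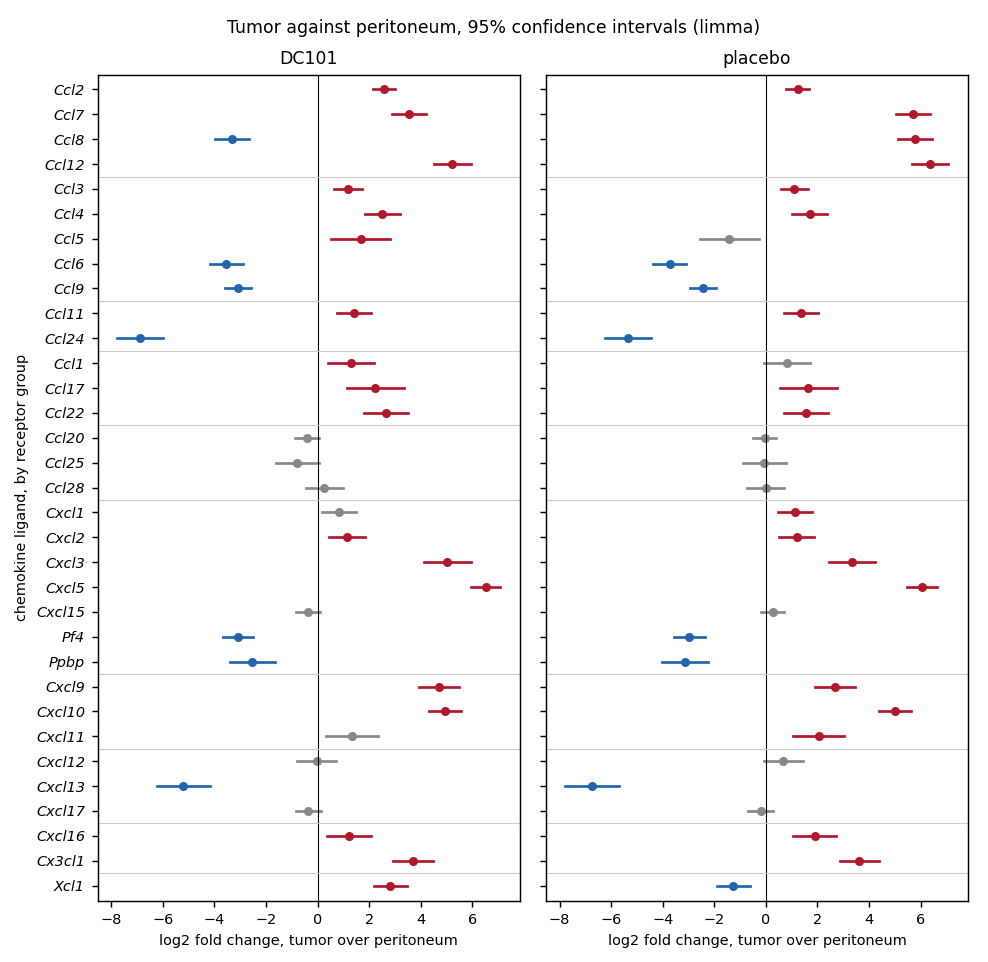
Points give the log2 fold change of tumor over peritoneal MC for each of the 33 ligands after DC101 and after placebo, with the 95% confidence interval of limma as a line; red marks higher and blue lower in tumor MC at adjusted p under 0.05, grey no call. Ccl8 and Xcl1 change side between the panels, with 2.82 after DC101 and −1.27 after placebo for Xcl1, and points of ligands with an array below the median of all clusters are fitted to values as deposited.

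Along the chromosomes, 2 of the 4 gene clusters drawn below held ligands that were higher and ligands that were lower in tumor MC after placebo. On chromosome 11, Ccl2, Ccl7, Ccl11, Ccl12, Ccl8 and Ccl1 follow each other with 0 other protein-coding genes between them in the RefSeq annotation, and after placebo the members from Ccl2 to Ccl8 were higher in tumor MC. In the next cluster, separated from Ccl1 by 25 protein-coding genes, Ccl9 and Ccl6 were lower and the adjoining Ccl3 and Ccl4 higher in tumor MC. On chromosome 5, the order is Cxcl5, Ppbp, Pf4, Cxcl3, Cxcl15, Cxcl1 and Cxcl2, again with 0 genes between, and the platelet pair was lower while Cxcl5, Cxcl3, Cxcl1 and Cxcl2 were higher after placebo. Cxcl9, Cxcl10 and Cxcl11 lie 16 protein-coding genes further on, with 1 gene between Cxcl9 and Cxcl10. A further run, Ccl22, Cx3cl1 and Ccl17 on chromosome 8 with 0 genes between, is not among the 4 drawn. All of its ligands were higher in tumor MC after placebo. Within DC101, where Ccl8 was lower in tumor MC, the cluster from Ccl2 to Ccl1 held both directions too.

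**Figure D5:**
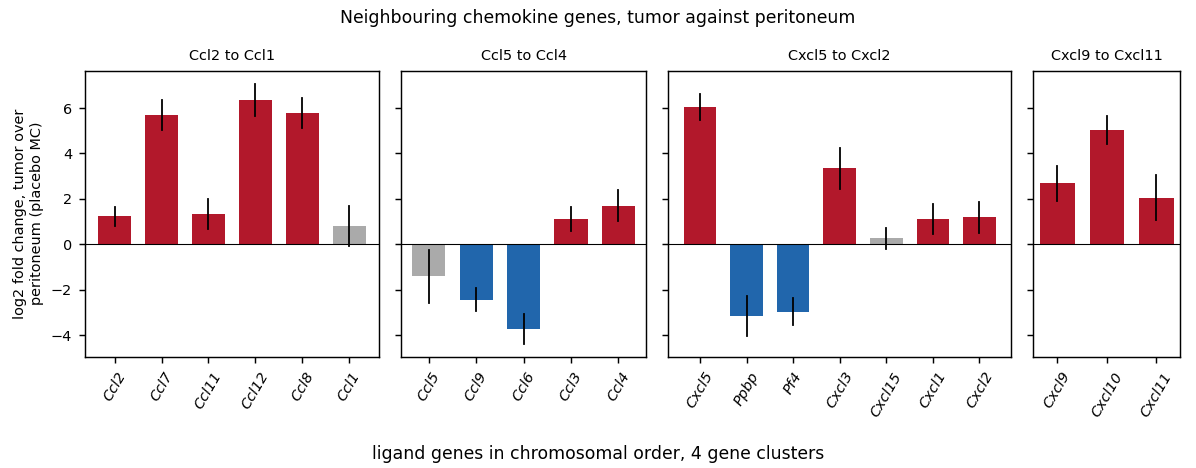
Bars give the log2 fold change of tumor over peritoneal MC after placebo, with the 95% confidence interval of limma as a line, for the ligand genes of 4 chromosomal clusters in the order in which they lie; red is higher, blue lower and grey without a call at adjusted p under 0.05. Ppbp and Pf4, both below 0, stand between Cxcl5 and Cxcl3, both above 0, and bars of ligands with peritoneal arrays below the median of all clusters are fitted to values as deposited.

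Markers of other cells differed between the compartments too. Of 6 fibroblast markers all 6 were higher in tumor MC under both treatments, and Col1a1, the collagen chain that defines these cells, read 6.71 to 7.26 in tumor MC and 2.86 to 3.91 in peritoneal MC. Of 3 epithelial markers the keratin genes Krt8 and Krt18 were higher in tumor MC under both treatments (average over the 3 markers 7.11 to 7.58 in tumor MC, 3.83 to 6.28 in peritoneal MC). The other marker, Epcam, had lower values in tumor MC that did not pass (−1.83, adjusted p = 0.091 within DC101 and −2.07, 0.0632 within placebo). Of 12 macrophage markers, 1 was higher and 11 were lower in tumor MC within DC101, and 5 were lower within placebo. All 5 B cell markers were lower in tumor MC (2.76 to 3.31 in tumor MC, 7.55 to 8.94 in peritoneal MC), and Itgam, which encodes the sorted CD11b, was lower by 3.86 within DC101 and 3.12 within placebo. Of 6 neutrophil markers, 3 were lower in tumor MC under each treatment (average 5.35 to 5.80 in tumor MC, 6.40 to 7.57 in peritoneal MC). Of 5 dendritic cell markers, 1 was lower within DC101 and 4 within placebo, and of 5 mesothelial markers Msln was higher under both treatments and 1 was lower within placebo. Of 3 basophil markers, 2 were higher and 1 was lower within DC101, and 2 were lower within placebo. Of 15 immediate early and stress genes, 7 were higher and 1 lower in tumor MC within DC101, and 11 were higher within placebo (average 9.67 to 9.86 in tumor MC, 7.92 to 9.03 in peritoneal MC). The part of these cells and genes in the ligand values was not tested.

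Receptors for the ligands were examined in the same arrays. Of 18 chemokine receptors, 16 were measured. In peritoneal MC, 3 rose with DC101 and 1 fell, and in tumor MC none passed in limma (1 at an unadjusted p under 0.05). Ccr3, the receptor of Ccl24 and Ccl11 on eosinophils and also 1 of the 6 eosinophil markers above, read 8.62 and 7.95 in peritoneal MC after DC101 and 4.49 and 4.43 after placebo. It rose by 3.82 on the log2 scale (adjusted p = 0.000548), alongside its ligand Ccl24. Ccr1, the receptor of Ccl6 and Ccl9, rose by 1.12 (adjusted p = 0.0369), and Cxcr4, the receptor of Cxcl12, by 1.47 (adjusted p = 0.0159). Ccr6, the receptor of Ccl20, fell by 1.36 (adjusted p = 0.00847). Between the compartments, 2 receptors were higher and 6 lower in tumor MC within DC101, and 2 were higher and 7 lower within placebo. Ccr2, to which Ccl2, Ccl7 and Ccl12 bind, read 5.46 and 5.29 in tumor MC after DC101 and 4.90 and 6.08 after placebo, against 8.11 and 8.10 and 8.36 and 8.70 in peritoneal MC. It was lower in tumor MC (log2 fold change −2.73 within DC101 and −3.04 within placebo), opposite in sign to these ligands. Cxcr5, the receptor of Cxcl13, was lower in tumor MC as well (at least 10.8-fold within DC101 and at least 15.4-fold within placebo), whereas Cx3cr1, the receptor of Cx3cl1, was higher (1.69 and 1.03). Of 5 atypical receptors, which lack G protein signaling, 2 were higher in tumor MC under each treatment and 1 was lower within placebo. Ackr3 was higher by 2.94 within DC101 and 2.58 within placebo on the log2 scale. Ackr1 was the one that was lower within placebo, by at least 2.58-fold. Of 7 ligands outside the 34, 2 were measured, Ccl26 and Ccl27a, which lay between 2.21 and 3.62 on all arrays and passed no test.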

How the data were processed

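Total RNA of sorted MC was hybridized to single-colour Affymetrix Mouse Gene 2.1 arrays. The deposited values are on the log2 scale and were computed by the authors with RMA, which corrects background, normalizes between arrays and summarizes probes to 1 value per transcript cluster. The version and options of RMA and the genome build were not given in the sources used here, and normalization between arrays removes a change shared by all genes. Clusters were named from the platform annotation. From these values, 5 comparisons were fitted with limma 3.58.1 in R 4.3.3, with 1 mean per group over all 8 arrays (4 residual and 4.93 prior degrees of freedom) and Benjamini-Hochberg adjustment over 24111 clusters. Calls were made at adjusted p under 0.05. The study's thresholds (p under 0.05, log2 fold change of at least 1, with the p taken as unadjusted because the sources do not say) were an alternative, beside other variance models, cyclic loess, filters, fewer groups, a replicate block and leaving out each array. No detection calls were used, so lower bounds of mean differences were computed by raising arrays of the lower group to their own array median. These bounds leave out the spread between arrays, and the rule was chosen after the values were seen. The script was tested on simulated data. No depth applies to arrays, and their number, 2 per group, limits the precision. Ligands with a call in any comparison were named with their values, as were marker and receptor genes with the smallest adjusted p. The members and the lists were chosen with earlier results of these data known. Promoter patterns were searched in Python 3.11.15, and figures were drawn with matplotlib 3.10.9.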

Additional observations from a re-analysis of the deposited data

Results flagged for a closer look

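In 2 ligands, the DC101 response differed between the compartments by a test of the difference itself (limma, tumor minus peritoneum, 33 ligands examined, adjustment over all clusters). For Ccl8 the difference was −9.09 on the log2 scale (95% confidence interval −10.01 to −8.16, adjusted p = 9.71e-05), made of −0.21 in tumor and 8.87 in peritoneal MC. These are fitted values that rest on placebo arrays below the median of all clusters, and with those arrays raised to their own median the difference was −7.71, which bounds its size from below. In the peritoneum both DC101 arrays were above both placebo arrays. For Xcl1 the difference was 4.08 (3.17 to 4.99, adjusted p = 0.00662), with −0.50 in tumor MC and −4.59 in peritoneal MC, where both DC101 arrays were below both placebo arrays. In the same test 5 of 12 macrophage markers had a lower and 2 of 12 T and NK cell markers a higher DC101 response in tumor MC than in peritoneal MC, and the part of these cells was not tested.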

How the results depend on the processing

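Of 60 calls of single ligands, recomputed in 1078 alternative values, 979 kept sign and call, 99 kept the sign and lost the call, and 0 changed sign. Most alternatives alter only the spread, the adjustment or other groups and leave the log2 fold change as it is. Its sign could not change under these. Nor could it change when 1 array was left out of 2 compared groups that did not overlap. In tumor MC the count of ligands was 0 under every alternative but the study's thresholds, which gave 1. In peritoneal MC it was 1 (instead of 8) with no moderation of the spread, and 3 to 8 when 1 array was left out, where 1 sample then stood for its group and was assumed to vary like the others. For the difference between compartments (2 ligands) it was 6 with an intensity trend, 0 with no moderation, 4 with dim clusters left out, 10 with the study's thresholds, and 2 to 3 with 1 array left out. For tumor against peritoneal MC it was lower in some fits with 1 array left out. With no moderation it was 17 (instead of 25) after DC101 and 15 (instead of 25) after placebo. Over all clusters, the 1105 calls in peritoneal MC became 33 with no moderation, 453 with the 2 groups alone and 311 to 906 with 1 array left out, and the 194 calls of the difference became 463, 0, 346 and 22 to 187 under trend, no moderation, dim clusters left out and 1 array left out. The replicate number as a block gave 0 ligands in tumor MC, 7 in peritoneal MC, 2 for the difference, 23 for tumor against peritoneum within DC101 and 24 within placebo. Deviations of same-numbered arrays correlated at −0.16 between the tumor groups and at −0.02 to 0.02 between the others, so the numbers were not taken to pair the arrays, and the block with the tumor numbers crossed, chosen after seeing the data, gave 0 ligands. Each ligand had 1 cluster, so averaging clusters gave no other value. Values near background limit what can be said of dim ligands.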
